A study of Homo sapiens with 12 samples.

Results

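The mitochondrial ribosomal protein (MRP) genes are the nuclear genes whose symbols begin with MRPL, for the large subunit, or MRPS, for the small subunit, followed by a number. They were taken from the gene names of the count tables by a rule that used no measured value. The set itself was chosen with earlier results of these data known. Of 23064 gene symbols, 78 matched, 49 named MRPL and 29 named MRPS. The RNAseq data came from CAL-29 and 5637, established human bladder carcinoma cell lines with the label genotype WT, harvested at day 3 after transfection with a control siRNA (siCtrl) or with an siRNA against KMT9α (siKMT9α), the lysine methyltransferase subunit encoded by N6AMT1. Each line had 3 siCtrl and 3 siKMT9α libraries, 12 in all. CAL-29 cells were grown in DMEM and transfected with RNAiMAX, whereas 5637 cells were grown in RPMI and transfected with DharmaFECT 3 at a higher siRNA concentration, so that line, medium and transfection cannot be told apart. A single siRNA sequence represents the knockdown, and nothing in the labels says that the libraries of a group came from separate cultures.

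Mitochondria translate the few proteins that are encoded in their own genome, all of them parts of the respiratory chain and the ATP synthase, on ribosomes of their own. The RNA of these ribosomes comes from mitochondrial DNA, but all of their proteins are made from nuclear genes in the cytosol and imported. Some of these proteins have a counterpart in the bacterial ribosome, and the others are found only in mitochondria.

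N6AMT1, the gene targeted by the siRNA, fell in both lines. N6AMT1 stood at 11.4, 10.2 and 9.67 CPM (counts scaled to the size of the library, with TMM factors set within the line) in the siCtrl libraries of CAL-29 and at 2.82, 2.93 and 1.99 CPM in the siKMT9α libraries. In 5637 cells, the values were 13.4, 13.2 and 13.3 CPM with siCtrl and 3.78, 2.22 and 2.59 CPM with siKMT9α. The groups did not overlap in either line, with a log2 fold change (siKMT9α over siCtrl) of −1.997 ± 0.15 (SE) in CAL-29 and −2.22 ± 0.12 in 5637. Of 12 epithelial and urothelial marker genes, 11 in CAL-29 and 10 in 5637 were at 1 CPM or more in siCtrl cells. Their summed level was 13318 to 13997 CPM in siCtrl and 6426 to 6577 CPM in siKMT9α libraries of CAL-29, and 8862 to 9291 CPM and 6135 to 6347 CPM in those of 5637. Of 12 markers of blood, endothelial, stromal, muscle and liver cells, 8 in CAL-29 and 9 in 5637 were under 1 CPM in siCtrl cells, and their summed level lay between 3.58 and 30.1 CPM in every library. Single epithelial markers were also read at an adjusted p below 0.05 (edgeR quasi-likelihood test). In CAL-29, 8 of 12 fell and 2 rose, against 35.3% and 34.3% of all genes. In 5637, 10 of the 11 tested fell and 1 rose, against 35.6% and 35.0%. The fall of the summed epithelial level moved with the same knockdown as the values below, and its part in them was not tested. Total counts, summed over the most counted transcript of each symbol only, were between 24479348.5 and 35151256.5 per library. The first siCtrl library of CAL-29 stood apart from the others of its group (chi-square over degrees of freedom 8.24 and 12.4 against the others, which had 3.32 between themselves).

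All 78 MRP genes passed the filter on low counts in both lines, and the lowest count of any of them in any library was 202. The windows below are shown because they hold ACATTCA, the complement of positions 2 to 8 of the guide strand of the siRNA, in the canonical transcript of an MRP gene. The first line is the whole 25-base target of the siRNA in the coding sequence of N6AMT1, and the others are the MRP transcripts around the same letters. The capitals mark those letters, each sequence is written 5′ to 3′ on the strand of the gene, and coordinates are of GRCh37.
N6AMT1: acgctgtaacaaagttcACATTCAa
MRPL19: gatttacagaataataaACATTCAt
MRPL17: tggccaaaggggtggagACATTCAg
MRPL42: gcctaacattgcctagcACATTCAt
MRPL37: ttggtttcaagccagagACATTCAg
MRPS27: tttttccagataactttACATTCAa
MRPL46: caccctgtgggcactacACATTCAa

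The target in N6AMT1 was at chr21:30254500-30254524 on the minus strand, in exon 3. The windows of MRPL19 (chr2:75882758-75882782, plus strand, 363 bases after the stop codon), MRPL17 (chr11:6702676-6702700, minus strand, 665 bases after it) and MRPL42 (chr12:93898688-93898712, plus strand, 3707 bases after it) were in 3′ UTRs. Those of MRPL37 (chr1:54683861-54683885, plus strand), MRPS27 (chr5:71529987-71530011, minus strand) and MRPL46 (chr15:89003037-89003061, minus strand) were in coding sequence. The other 72 MRP genes held the letters in neither region of the canonical transcript. A match of these letters is a description and not a shown site of action. The canonical transcript may not be the one that was counted, and that of MRPL42 is 15557 bases long.

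In CAL-29 cells, MRP genes were mostly higher after KMT9α knockdown. At an unadjusted p below 1e-06, the threshold of the study, 19 of the 78 were higher and 1 was lower (edgeR quasi-likelihood test on all 14682 genes), against 14.9% and 15.0% of all genes tested. With p adjusted over all genes by Benjamini and Hochberg and called below 0.05, 50 rose and 2 fell, against 34.3% and 35.3% of all genes. The libraries of the groups did not overlap for 58 MRP genes, 56 of them higher and 2 lower with siKMT9α, against 35.6% and 36.7% of all genes. The median log2 fold change of the MRP genes was 0.26 (range −1.32 to 0.80, 73 of them above 0), and that of all genes −0.02. In bulk RNA, a change in the kinds of cells and a change of RNA per cell cannot be told apart.

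In 5637 cells, the same genes moved in both directions. At p below 1e-06, 8 were higher and 6 lower, against 17.9% and 17.5% of all 14367 genes tested. At an adjusted p below 0.05, 25 were higher and 16 lower, against 35.0% and 35.6% of all genes. These counts were 21 and 27 with scaling to total counts and 21 and 22 with scaling to the upper quartile. The balance of higher and lower calls thus turned, from 61.0% higher to 43.8% and 48.8%. Over all genes, the higher share of calls went from 49.6% to 43.2% and 44.8%. The groups did not overlap for 22 MRP genes that were higher and for 16 that were lower, against 35.8% and 36.5% of all genes, and overlapped for 40. The median log2 fold change was 0.02 (range −1.91 to 0.50) and that of all genes −0.01. With scaling to total counts or to the upper quartile, the median of the MRP genes was below 0 (−0.03 and −0.02), and that of all genes was further below it (−0.06 and −0.05).

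The summed level of all 78 genes was 2336, 2580 and 2588 CPM in the siCtrl and 3052, 3078 and 3039 CPM in the siKMT9α libraries of CAL-29. It was 3758, 3923 and 3935 CPM in the siCtrl and 3897, 4096 and 4033 CPM in the siKMT9α libraries of 5637. The groups did not overlap in CAL-29, where the first siCtrl library was the lowest, and overlapped in 5637. Without that library, 46 MRP genes were higher and 3 lower in CAL-29 at an adjusted p below 0.05, with a median log2 fold change of 0.22. Of all 14846 genes tested in that fit, 5069 were higher and 5117 lower, with a median of −0.01. The count of MRP genes at p below 1e-06, 20 in both directions, was 25 without the first siCtrl library and 12 without the second. It was 10, 10 and 9 without the first, the second or the last siKMT9α library. Over all genes, 2194 were higher and 2202 lower at that threshold. Leaving out a library of CAL-29 gave 1526 to 2824 higher and 1634 to 2709 lower.

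**Figure D1:**
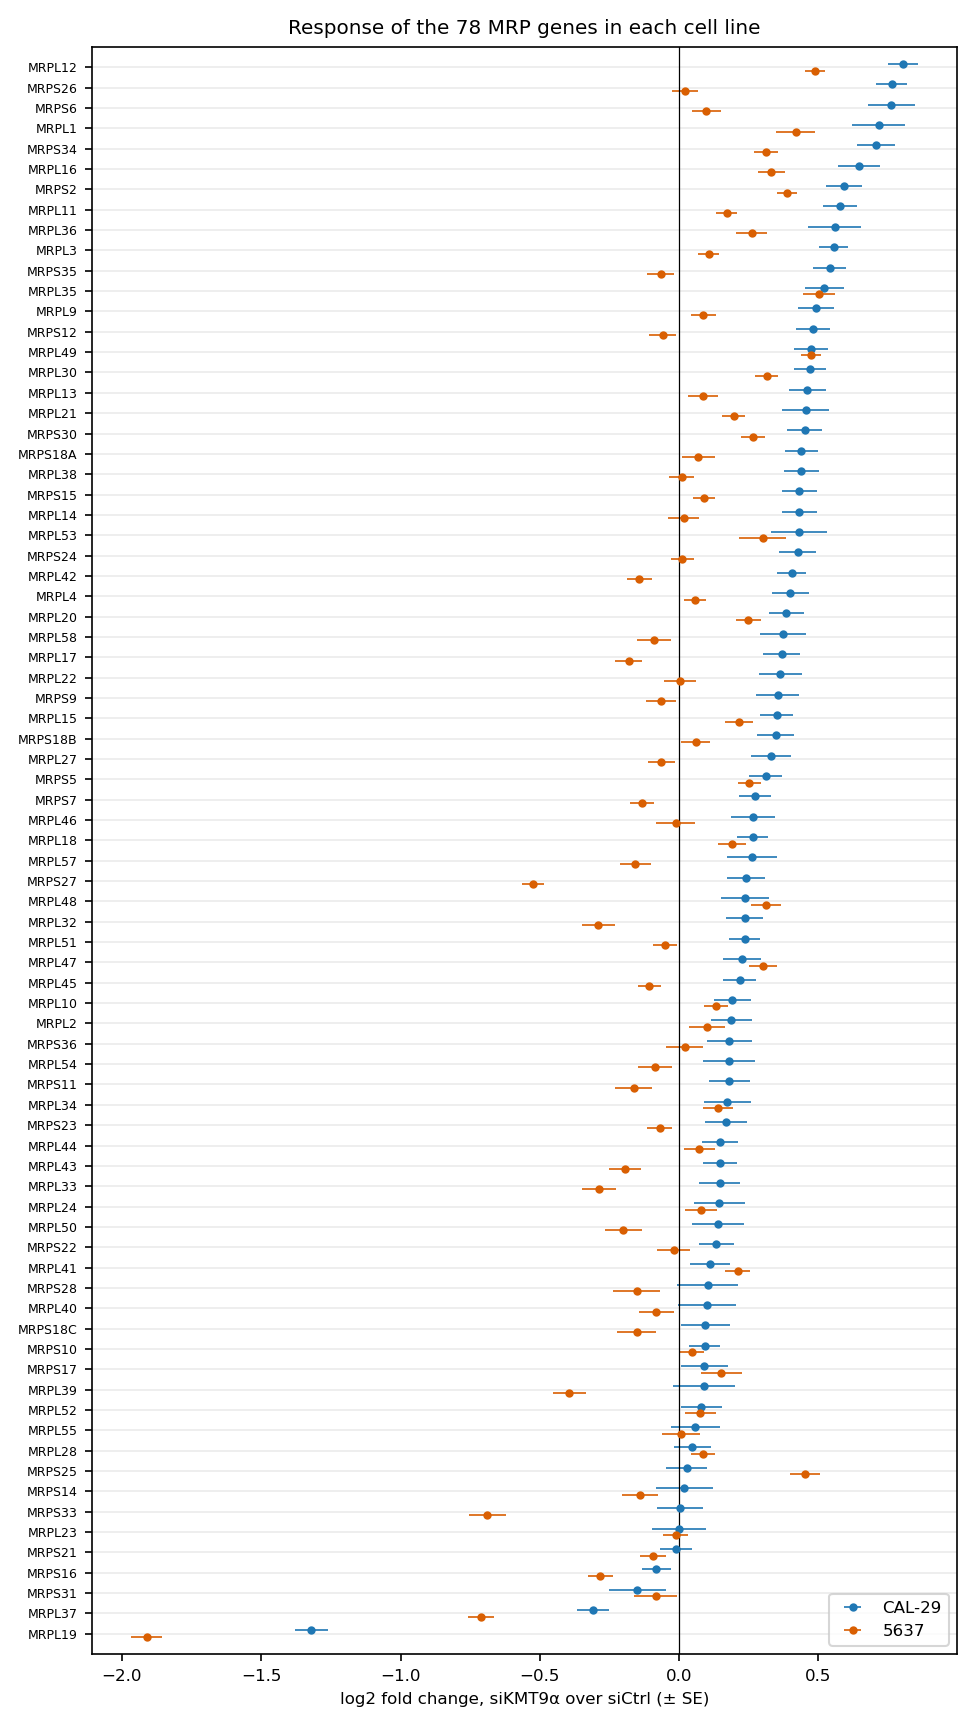
Log2 fold change of each of the 78 MRP genes (siKMT9α over siCtrl, horizontal axis, ± SE of the edgeR fit over 3 libraries against 3), sorted by the value in CAL-29, with CAL-29 in blue and 5637 in orange. In CAL-29, 73 of the 78 points lie above 0, whereas in 5637 45 lie above and 33 below it, and MRPL19 is the lowest in both lines.

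One gene, MRPL19, fell at p below 1e-06 in both lines. It encodes a protein of the large subunit with a bacterial counterpart. In CAL-29, its level was 61.2, 63.7 and 68.7 CPM in siCtrl and 25.8, 25.4 and 26.4 CPM in siKMT9α libraries (log2 fold change −1.32 ± 0.060 (SE), adjusted p = 6.09e-14). In 5637, it was 60.1, 58.2 and 56.97 CPM with siCtrl and 15.8, 16.4 and 14.5 CPM with siKMT9α (log2 fold change −1.91 ± 0.056 (SE), adjusted p = 6.27e-22). The knockdown libraries were all far below the control libraries, a fall of 60.0% in CAL-29 and of 73.4% in 5637. No other MRP gene changed by more than 1 on the log2 scale in either line, and the fall of MRPL19 was larger in 5637 (difference, CAL-29 minus 5637, of 0.61 ± 0.083 (SE) on the log2 scale, adjusted p = 5.07e-07). The 3′ UTR window of MRPL19 is shown above, and its part in the fall was not tested.

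MRPL37, a large subunit protein found only in mitochondria, was the second gene that was lower in both lines at an adjusted p below 0.05, and was picked for description after its values were seen. Its level was 66.1, 71.4 and 74.4 CPM with siCtrl and 59.3, 58.4 and 53.04 CPM with siKMT9α in CAL-29 (log2 fold change −0.31 ± 0.058 (SE), adjusted p = 7.60e-05). In 5637, it was 107, 112 and 121 CPM with siCtrl and 67.9, 74.2 and 66.2 CPM with siKMT9α (log2 fold change −0.71 ± 0.046 (SE), adjusted p = 5.12e-14). The groups were apart in both lines, and p was below 1e-06 in 5637 but not in CAL-29. The window of MRPL37 lay in its coding sequence.

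The 6 genes with ACATTCA in the canonical 3′ UTR or coding sequence are set out together here. The search of coding sequence was added after values were seen. In CAL-29, MRPL19 and MRPL37, the genes called lower at an adjusted p below 0.05, were both among these 6. Called higher in CAL-29 were 2 of the 3 with the letters in the 3′ UTR and 2 of the 3 in coding sequence. Of the other 72 MRP genes, 0 were called lower and 46 higher. In 5637, 5 of the 6 were called lower, all but MRPL46, as were 11 of the other 72 (15.3%). MRPL17, MRPL42 and MRPS27 were higher in CAL-29 (log2 fold changes of 0.37, 0.40 and 0.24), each at an adjusted p below 0.05. In 5637, the same 3 genes were lower (−0.18, −0.14 and −0.52), again each at an adjusted p below 0.05. MRPL46 had a log2 fold change of 0.26 in CAL-29, called higher, and −0.01 in 5637, not called. Over all genes tested with an annotated 3′ UTR, the median response of those with the letters in the canonical 3′ UTR was −0.29 (CAL-29) and −0.32 (5637) on the log2 scale, and 55.2% and 60.5% of them were called lower. Of genes with the letters in the coding sequence but not in the 3′ UTR, 46.6% and 45.5% were called lower, with medians of −0.15 and −0.13. Of genes with the letters in neither region, 30.6% and 31.2% were called lower, with medians of 0.06 and 0.05. The letters occurred in the 3′ UTR of 14.0% of these genes in CAL-29, and in that of 3 of the 78 MRP genes (3.85%). In transcripts that are not the canonical one, MRPS22, MRPS25 and MRPS27 also held the letters in a 3′ UTR, and MRPS25 rose in 5637 while MRPS22 had log2 fold changes of 0.13 and −0.02, not called in either line. The part of these letters in the level of any MRP gene was not tested.

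Among the genes that rose, 7 did so at p below 1e-06 in both lines: MRPL12, MRPL16, MRPL30, MRPL35, MRPL49, MRPS2 and MRPS34. MRPL12, the protein of the flexible stalk of the large subunit, showed the largest rise of the set in CAL-29, from 45.9, 51.6 and 49.4 CPM with siCtrl to 84.5, 84.7 and 87.2 CPM with siKMT9α (log2 fold change 0.80 ± 0.053 (SE), adjusted p = 2.99e-11). In 5637, it rose from 111, 118 and 114 to 157, 163 and 162 CPM (log2 fold change 0.49 ± 0.035 (SE), adjusted p = 6.77e-13). The control and knockdown libraries were well apart in both lines. In the annotation, 69.5% of the exon bases of MRPL12 also belong to a second gene model on the same strand, so reads of the overlapping model cannot be told apart from its own.

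MRPL35, a large subunit protein with a bacterial counterpart, rose by nearly the same amount in both lines. In CAL-29, it went from 22.96, 24.2 and 26.7 CPM to 34.1, 37.4 and 34.5 CPM (log2 fold change 0.52 ± 0.070 (SE), adjusted p = 1.40e-06). In 5637, it went from 26.1, 25.01 and 23.1 CPM to 34.5, 35.6 and 34.96 CPM (log2 fold change 0.50 ± 0.056 (SE), adjusted p = 6.02e-09). Its siCtrl levels in the lines were also close, and every siKMT9α library was above every siCtrl library of its line. MRPL49, a large subunit protein found only in mitochondria, rose from 66.1, 80.2 and 77.5 to 104, 106 and 101 CPM in CAL-29 (log2 fold change 0.47 ± 0.060 (SE), adjusted p = 5.54e-07). In 5637, where it had the highest CPM of the set in siCtrl cells, it rose from 134, 128 and 137 to 178, 186 and 190.1 CPM (log2 fold change 0.47 ± 0.036 (SE), adjusted p = 2.25e-12). The log2 fold changes of MRPL35 and of MRPL49 differed between the lines by 0.04 ± 0.091 (SE) and 0.02 ± 0.073, neither of which passed the test.

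MRPS2, a small subunit protein with a bacterial counterpart, had 26.6, 29.97 and 29.7 CPM with siCtrl and 42.2, 42.9 and 45.05 CPM with siKMT9α in CAL-29 (log2 fold change 0.59 ± 0.064 (SE), adjusted p = 5.44e-08). In 5637, it had 87.03, 85.4 and 89.03 CPM with siCtrl and 110.5, 118 and 113 CPM with siKMT9α (log2 fold change 0.39 ± 0.037 (SE), adjusted p = 3.46e-10). Again no siKMT9α library overlapped a siCtrl library of its line. MRPL16, a large subunit protein with a bacterial counterpart, had 16.8, 19.3 and 19.1 CPM with siCtrl and 27.6, 30.1 and 28.5 CPM with siKMT9α in CAL-29 (log2 fold change 0.64 ± 0.076 (SE), adjusted p = 1.98e-07). In 5637, the values were 51.9, 56.8 and 59.6 CPM with siCtrl and 70.5, 74.3 and 67.2 CPM with siKMT9α (log2 fold change 0.33 ± 0.049 (SE), adjusted p = 7.62e-07). For both genes, every siCtrl library of 5637 was above every siKMT9α library of CAL-29. MRPL30, also of the large subunit and of bacterial type, rose with log2 fold changes of 0.47 ± 0.058 and 0.31 ± 0.041 (SE), and MRPS34, a small subunit protein found only in mitochondria, with 0.71 ± 0.067 and 0.31 ± 0.043.

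**Figure D2:**
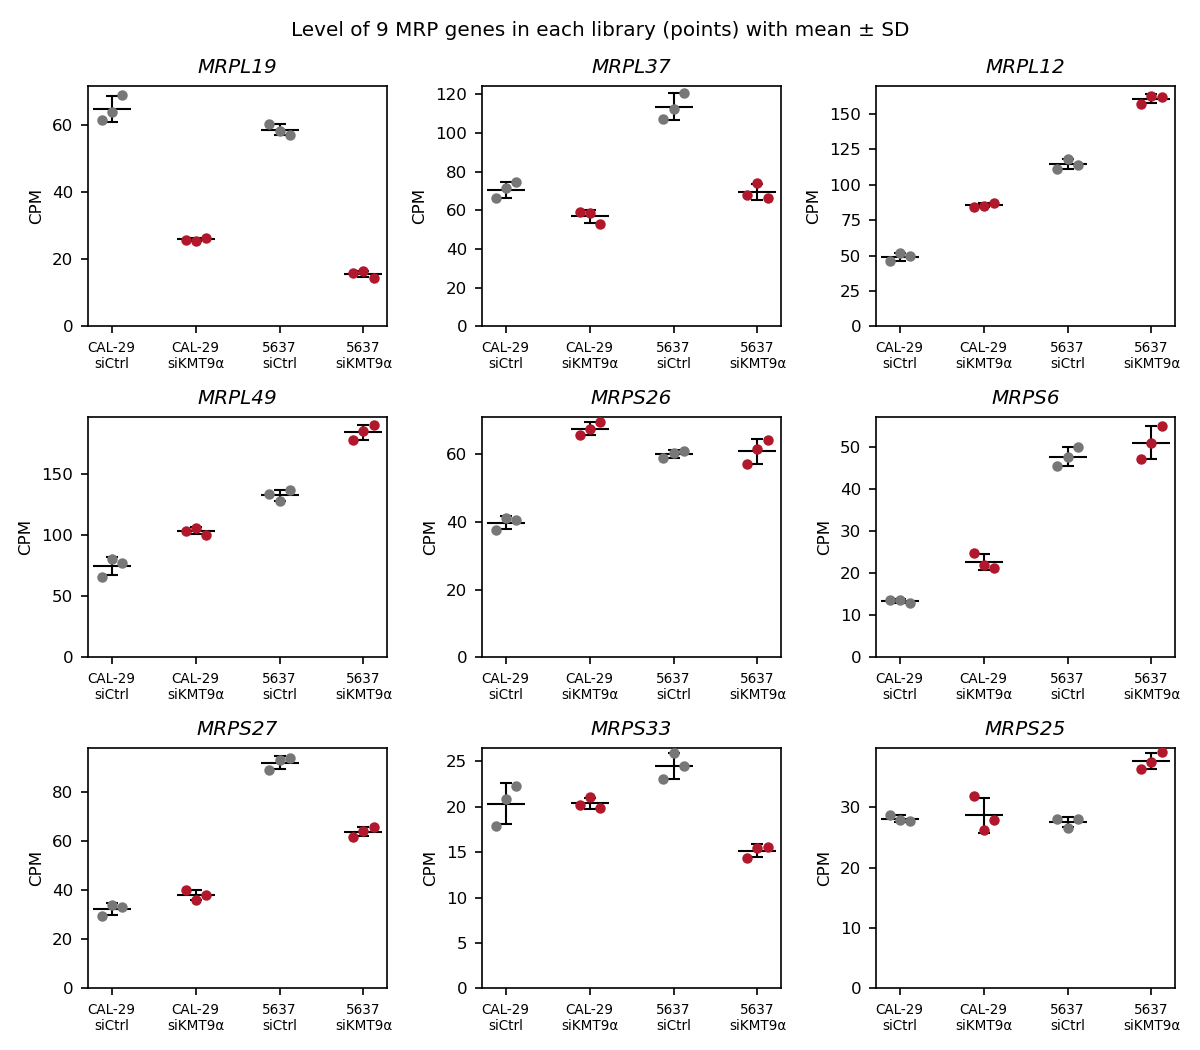
Level in CPM (vertical axis, from 0, TMM-scaled within each line) of 9 MRP genes in every library, with grey points for siCtrl, red points for siKMT9α and black marks for the mean ± SD of 3 libraries. MRPL19 falls in both lines, MRPL12 and MRPL49 rise in both, MRPS26 and MRPS6 rise in CAL-29, and MRPS27 and MRPS33 fall in 5637.

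Whether a gene responded differently in the lines was tested with the interaction of line and siRNA over all 12 libraries. At an adjusted p below 0.05, the log2 fold change was larger (more positive) in CAL-29 for 49 MRP genes, smaller for 1, MRPS25, and not called for 28, against 28.5% and 21.8% of all 15411 genes in that fit. The median difference was 0.30 for the MRP genes and 0.04 for all genes. With scaling to total counts, the median of all genes moved by 0.12 to 0.16 and that of the MRP genes to 0.42. A change of scaling shifts all genes by nearly the same amount, so their distance, 0.26, could hardly change. With that scaling, 62 MRP genes were called with a larger and 1 with a smaller log2 fold change in CAL-29. Over all genes, these calls went from 4391 larger and 3366 smaller to 5841 and 2460. Without the first siCtrl library of CAL-29, 43 MRP genes had a larger and 1 a smaller log2 fold change in CAL-29. Of all 15640 genes in that fit, 4364 had a larger and 3301 a smaller one at an adjusted p below 0.05.

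The largest differences between the lines among called genes were all in the small subunit. MRPS27, an MRP found only in mitochondria, had 29.6, 33.95 and 33.3 CPM with siCtrl and 40.2, 36.1 and 38.1 CPM with siKMT9α in CAL-29 (log2 fold change 0.24 ± 0.067 (SE), adjusted p = 0.00341). In 5637, it had 88.9, 93.2 and 93.8 CPM with siCtrl and 61.8, 64.2 and 65.8 CPM with siKMT9α (log2 fold change −0.52 ± 0.040 (SE), adjusted p = 2.67e-12). The knockdown libraries were above the controls in CAL-29 and below them in 5637, with a difference of 0.78 ± 0.076 (SE) on the log2 scale, adjusted p = 1.11e-09. MRPS26, likewise found only in mitochondria, had 37.6, 41.1 and 40.4 CPM with siCtrl and 65.6, 67.4 and 69.3 CPM with siKMT9α in CAL-29 (log2 fold change 0.76 ± 0.055 (SE), adjusted p = 1.21e-10). In 5637, its values of 58.8, 60.4 and 60.9 CPM with siCtrl and 56.9, 61.4 and 64.2 CPM with siKMT9α overlapped (log2 fold change 0.02 ± 0.045 (SE), adjusted p = 0.699).

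MRPS6, the counterpart of bacterial S6, had 13.6, 13.7 and 12.8 CPM with siCtrl and 24.8, 22.02 and 21.2 CPM with siKMT9α in CAL-29 (log2 fold change 0.76 ± 0.084 (SE), adjusted p = 8.29e-08). In 5637, it had 45.4, 47.7 and 49.95 CPM with siCtrl and 47.1, 50.8 and 55.01 CPM with siKMT9α, with overlapping groups (log2 fold change 0.10 ± 0.052 (SE), adjusted p = 0.0985). In the annotation, 33.1% of its exon bases are shared with other genes on the same strand, among them SLC5A3, a transporter of inositol. MRPS33, found only in mitochondria, showed the opposite arrangement, with 17.9, 20.8 and 22.3 CPM with siCtrl and 20.2, 21.1 and 19.9 CPM with siKMT9α in CAL-29 (log2 fold change 0.00 ± 0.083 (SE), adjusted p = 0.974) and overlapping groups there. In 5637, it went from 23.02, 25.9 and 24.5 to 14.3, 15.5 and 15.6 CPM (log2 fold change −0.69 ± 0.067 (SE), adjusted p = 3.97e-10), with every knockdown library below the controls.

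MRPS35, also a small subunit protein found only in mitochondria, rose in CAL-29 from 55.7, 60.9 and 67.00 to 92.4, 88.9 and 85.7 CPM (log2 fold change 0.54 ± 0.060 (SE), adjusted p = 8.27e-08). In 5637, the values were 42.2, 41.8 and 44.8 CPM with siCtrl and 41.6, 40.5 and 40.99 CPM with siKMT9α (log2 fold change −0.07 ± 0.048 (SE), adjusted p = 0.215). MRPS25, found only in mitochondria, was the single gene with a smaller log2 fold change in CAL-29 and was named after its values were seen. It had 28.8, 27.9 and 27.8 CPM with siCtrl and 31.9, 26.3 and 27.9 CPM with siKMT9α in CAL-29, where the groups overlapped (log2 fold change 0.03 ± 0.074 (SE), adjusted p = 0.754). In 5637, it rose from 28.1, 26.6 and 28.1 to 36.5, 37.5 and 39.2 CPM (log2 fold change 0.45 ± 0.053 (SE), adjusted p = 1.53e-08), giving a difference of −0.41 ± 0.091 (SE) on the log2 scale, adjusted p = 4.40e-04.

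Taking the calls of both lines side by side at an adjusted p below 0.05, 22 MRP genes were higher in both lines, 2 were lower in both and 9 were higher in CAL-29 and lower in 5637, against 22.5%, 21.7% and 5.01% of the 13699 genes tested in both lines. These 9 were MRPL17, MRPL32, MRPL42, MRPL43, MRPL45, MRPL57, MRPS7, MRPS11 and MRPS27, with log2 fold changes between 0.15 and 0.40 in CAL-29 and between −0.52 and −0.11 in 5637. A further 19 were higher in CAL-29 and not called in 5637, against 8.1% of all genes. In 5637 alone, 3 were higher (MRPL34, MRPL41 and MRPS25) and 5 lower (MRPL33, MRPL39, MRPL50, MRPS16 and MRPS33), against 8.36% and 9.04%. The remaining 18 were called in neither line, against 12.1%, among them MRPL23, MRPL55 and MRPL52, whose log2 fold changes lay between −0.01 and 0.08. No MRP gene was lower in CAL-29 and higher in 5637 or not called there, against 4.88% and 8.35% of all genes. Across the 78 genes, the responses in CAL-29 and 5637 correlated with a Pearson's r of 0.75 and a Spearman's rho of 0.53, and without MRPL19 with 0.56 and 0.52. Over all 13699 genes tested in both lines, they were 0.52 and 0.53. Genes are not independent replicates, and the correlations are given as a description.

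**Figure D3:**
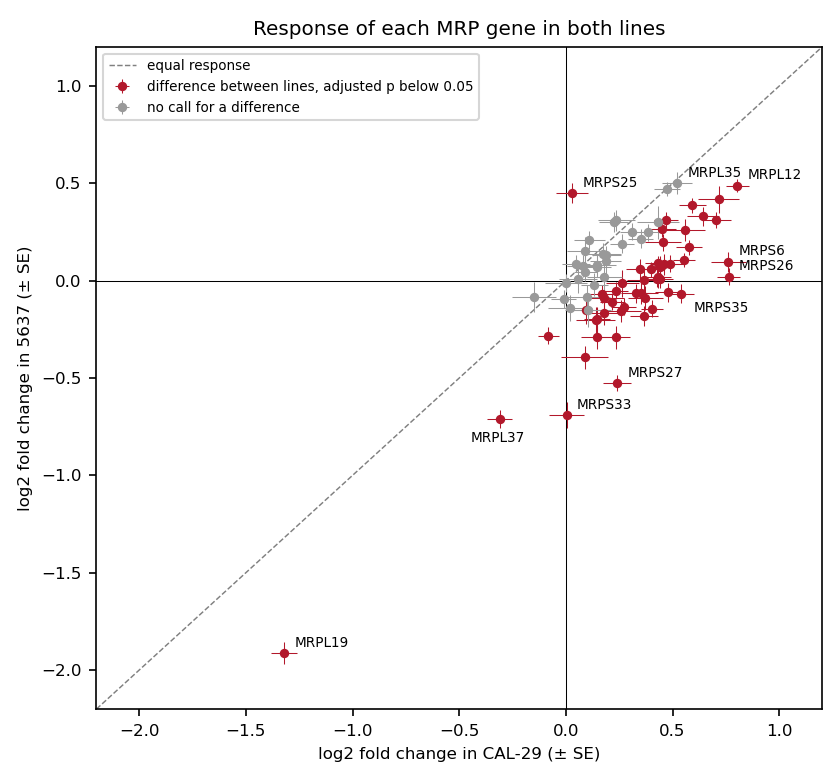
Log2 fold change (siKMT9α over siCtrl, ± SE) of each MRP gene in CAL-29 (horizontal axis) and 5637 (vertical axis), with genes whose response differed between the lines at an adjusted p below 0.05 in red, the others in grey and equal response as a dashed line. Of the 50 red points, 49 lie below the dashed line and 1, MRPS25, above it.

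The genes were next grouped by their place in the ribosome, with MRPS18A and MRPS30 counted with the large subunit, where they sit despite their names, and MRPS36 left out because it is not a fixed part of the ribosome. Of 51 large subunit genes, 36 were higher and 2 lower in CAL-29 and 20 were higher and 11 lower in 5637 at an adjusted p below 0.05, with median log2 fold changes of 0.26 and 0.08. Of 26 small subunit genes, 14 were higher and 0 lower in CAL-29 and 5 were higher and 5 lower in 5637, with medians of 0.21 and −0.06. Of 46 genes with a bacterial counterpart, 32 were higher and 1 lower in CAL-29 and 18 higher and 7 lower in 5637 (medians 0.34 and 0.09). Of 31 genes found only in mitochondria, 18 were higher and 1 lower in CAL-29 and 7 higher and 9 lower in 5637 (medians 0.23 and −0.05). Of all genes tested, 34.3% were higher and 35.3% lower in CAL-29 and 35.0% and 35.6% in 5637. In 5637, the shares of large subunit genes and of genes with a bacterial counterpart called higher were thus near the background. So was the share of genes found only in mitochondria that were called lower. These are counts within the set and no test of one group against another was made. For comparison, of the genes for proteins of the cytosolic ribosome, 77 of 81 tested were higher and 1 lower in CAL-29 (median 0.47), and 64 of 82 were higher and 8 lower in 5637 (median 0.17).

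**Figure D4:**
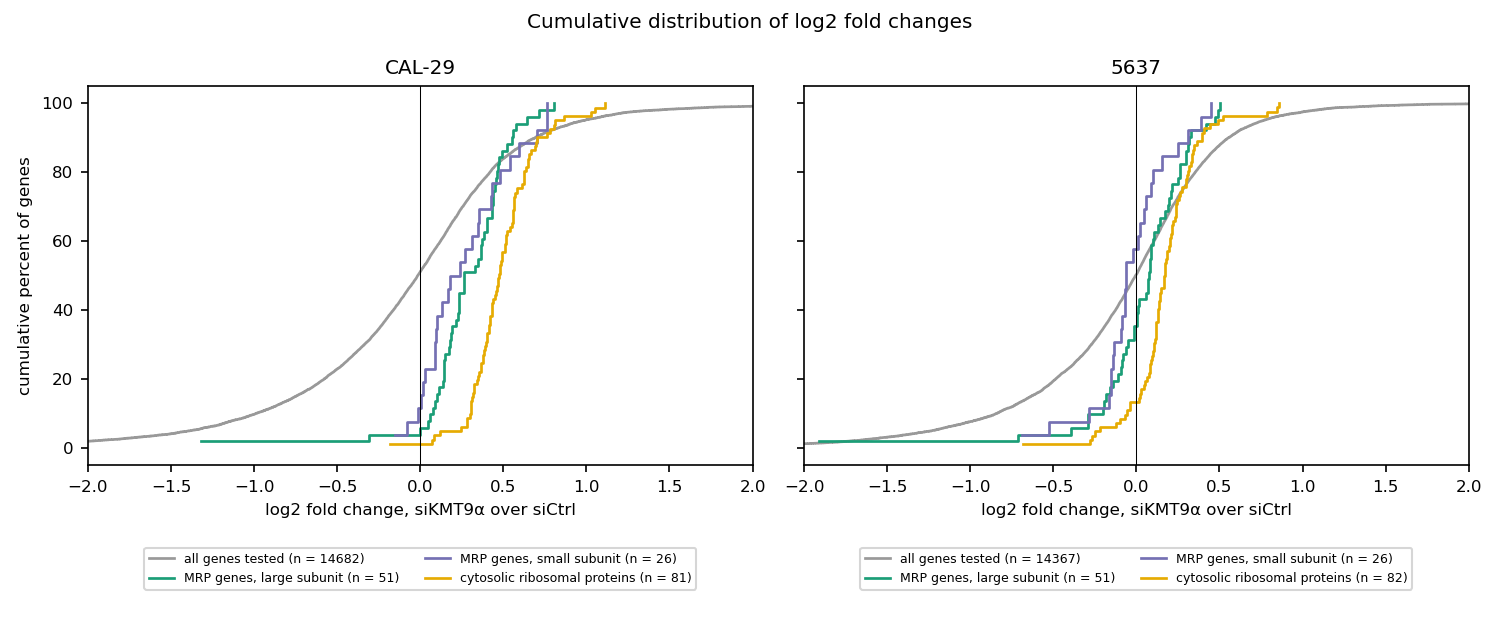
Cumulative percent of genes (vertical axis) at or below a log2 fold change (siKMT9α over siCtrl, horizontal axis, cropped to ±2) in CAL-29 (left) and 5637 (right), for all genes tested, MRP genes of the large and small subunit and cytosolic ribosomal proteins. In CAL-29, both MRP curves lie to the right of 0 for most of their course (medians 0.26 and 0.21), and in 5637 they cross 50% close to 0 (medians 0.08 and −0.06).

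Levels also differed between the lines without knockdown. In siCtrl cells, 64 MRP genes were lower and 7 higher in CAL-29 than in 5637 at an adjusted p below 0.05, against 42.5% and 42.8% of all genes, and 7 were not called. The median difference was −0.63 on the log2 scale, a level 1.55 times higher in 5637, while that of all genes was 0.01. With all 12 libraries on 1 scale, the summed level was 2267, 2513 and 2521 CPM in siCtrl and 3004, 3032 and 2998 CPM in siKMT9α libraries of CAL-29. In 5637, it was 3844, 3997 and 4013 CPM in siCtrl and 3983, 4180 and 4126 CPM in siKMT9α libraries. The knockdown libraries of CAL-29 were thus above its controls and below every library of 5637. The largest differences between siCtrl cells were those of MRPL11 (3.87 times higher in 5637, log2 difference −1.95 ± 0.050 SE), MRPS6 (3.74 times, −1.90 ± 0.071) and MRPL21 (3.66 times, −1.87 ± 0.067), all with bacterial counterparts. MRPL11 had 30.9, 34.5 and 34.3 CPM in siCtrl CAL-29 and 118, 125 and 124 CPM in siCtrl 5637 cells. MRPL21 had 21.3, 27.9 and 21.99 CPM and 81.3, 85.3 and 81.7 CPM. These groups were far apart, and the genes higher in CAL-29 differed by less, with MRPS16 (log2 difference 0.48) and MRPS35 (0.44) at the top.

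**Figure D5:**
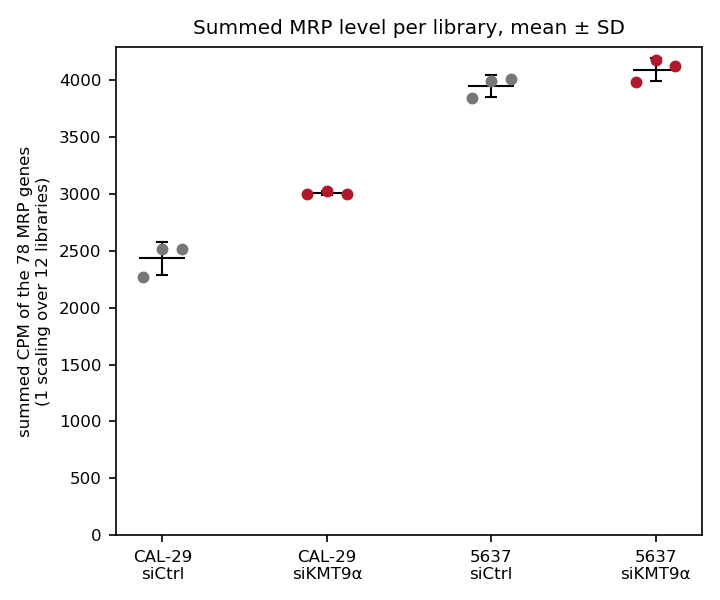
Summed CPM of the 78 MRP genes (vertical axis, from 0, 1 TMM scaling over 12 libraries) in every library, with grey points for siCtrl, red points for siKMT9α and black marks for the mean ± SD of 3 libraries. The siKMT9α libraries of CAL-29, at 2998 to 3032 CPM, lie above its siCtrl libraries and below all libraries of 5637.

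To compare levels between genes, CPM were divided by the length in kilobases of the GENCODE canonical transcript, which may not be the RefSeq transcript that was counted. By the mean of the siCtrl cells of both lines, the highest levels per length were those of MRPS24, MRPL51 and MRPL12. MRPS24, the counterpart of bacterial S3, was at 55.7 ± 5.61 CPM per kilobase in CAL-29 and 171 ± 10.1 in 5637 (SD, n = 3). MRPL51, found only in mitochondria, was at 83.5 ± 6.98 and 93.4 ± 4.67, and MRPL12 at 47.2 ± 2.85 and 116 ± 3.31. The order of the lines' own values was not shared, since MRPL51 was above MRPS24 in CAL-29 and below it in 5637 by more than their SDs. The lowest were MRPL42 (3.03 ± 0.103 and 3.38 ± 0.0829), MRPS33 (4.70 ± 0.526 and 5.93 ± 0.335) and MRPL50 (4.32 ± 0.284 and 6.78 ± 0.31), of which MRPS33 and MRPL50 lay within 1 SD of each other in CAL-29. MRPL42 was divided by a transcript of 15557 bases, so its low value depends on that choice.

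In the annotation, 31 of the 78 MRP genes share exon bases with another gene, 22 of them with a gene on the other strand. Of MRPS24, 90.9% of the exon bases also belong to the read-through gene URGCP-MRPS24, and of MRPL53, 99.2% to CCDC142. Gene models on the same strand also cover 94.3% of the exon bases of MRPL38, 73.4% of MRPL46, 43.4% of MRPS25 and 22.3% of MRPL19, and a gene on the other strand covers 32.6% of those of MRPS34. The 47 genes that share no exon bases had median log2 fold changes of 0.24 in CAL-29 and 0.01 in 5637, with 27 higher and 1 lower in CAL-29 and 14 higher and 10 lower in 5637. Of the 23 MRP genes with more than 1 counted transcript, none had transcripts called in both directions in a line. MRP transcripts were short, with a median length of 1242 bases against 3184 and 3209 for the genes tested in CAL-29 and 5637. With all genes split into 3 classes of equal size by length, the shortest had a median change (log2) of 0.06 in CAL-29 and 0.00 in 5637, compared with −0.08 and −0.01 for the longest genes.

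Promoter windows from 250 bases before to 50 after the start, taken from RefSeq on GRCh38.p14, were matched for 69 of the 78 genes. They were searched on both strands for CCGGAAGT, the letters bound by ETS factors such as GABPA, for AAGATGGCG, those of YY1, and for CGCATGCG, the core of the NRF1 motif. None of these motifs contains another. The ETS letters were in 11 windows (15.9%, against 8.03% of the windows of all genes tested), the YY1 letters in 13 (18.8%, against 3.61%) and the NRF1 core in 3 (4.35%, against 3.63%). At least 1 of them was in 24 windows (34.8%, against 14.2%). MRP genes with such a window had median log2 fold changes of 0.37 in CAL-29 and 0.03 in 5637, and those without 0.22 and 0.01. A match is a description of these letters and not a shown binding site. The windows of MRPL16 (chr11:59810729-59811028, minus strand), MRPS24 (chr7:43869468-43869767, minus strand) and MRPL38 (chr17:75904835-75905134, minus strand) are shown as examples of one with the ETS letters, one with the YY1 letters and one with both, in capitals.
MRPL16 promoter: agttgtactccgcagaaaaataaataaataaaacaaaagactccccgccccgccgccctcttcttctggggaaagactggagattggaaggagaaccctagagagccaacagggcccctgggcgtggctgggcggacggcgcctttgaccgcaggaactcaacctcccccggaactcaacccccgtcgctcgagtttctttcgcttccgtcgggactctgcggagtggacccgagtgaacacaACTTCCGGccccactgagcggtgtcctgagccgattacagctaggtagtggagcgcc
MRPS24 promoter: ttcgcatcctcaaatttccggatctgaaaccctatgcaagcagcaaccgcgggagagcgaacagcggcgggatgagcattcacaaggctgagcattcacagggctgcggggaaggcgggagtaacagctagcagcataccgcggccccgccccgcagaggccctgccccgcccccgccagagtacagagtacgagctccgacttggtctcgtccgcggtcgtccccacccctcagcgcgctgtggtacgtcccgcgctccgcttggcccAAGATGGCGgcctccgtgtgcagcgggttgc
MRPL38 promoter: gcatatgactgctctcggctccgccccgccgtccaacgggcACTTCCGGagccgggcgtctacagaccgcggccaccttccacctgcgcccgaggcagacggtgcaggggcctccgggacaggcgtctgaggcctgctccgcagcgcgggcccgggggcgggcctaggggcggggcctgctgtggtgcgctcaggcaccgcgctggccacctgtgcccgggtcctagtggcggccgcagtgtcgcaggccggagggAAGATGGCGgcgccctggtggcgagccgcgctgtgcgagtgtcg

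MRPL16 rose in both lines, as given above, whereas MRPS24 (log2 fold change 0.43 ± 0.067 (SE), adjusted p = 9.31e-06) and MRPL38 (log2 fold change 0.44 ± 0.062 (SE), adjusted p = 2.77e-06) rose in CAL-29 and had log2 fold changes of 0.01 each in 5637. MRPL46 and MRPS11 are neighbours on chromosome 15 and are transcribed away from each other. MRPS11, a small subunit protein with a bacterial counterpart, had 23.9, 28.6 and 28.2 CPM with siCtrl and 29.7, 29.8 and 32.1 CPM with siKMT9α in CAL-29, and 21.2, 23.2 and 24.3 CPM with siCtrl and 20.01, 19.97 and 21.4 CPM with siKMT9α in 5637. Its log2 fold changes were 0.18 and −0.16, beside 0.26 and −0.01 for MRPL46.

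The other genes of mitochondrial translation were read from the same fits, in which, as above, 34.3% of all genes were higher and 35.3% lower in CAL-29 and 35.0% and 35.6% in 5637. All 5 proteins of the mitochondrial ribosome with names outside the MRPL and MRPS series, such as DAP3, were higher in CAL-29 at an adjusted p below 0.05, and 2 were higher in 5637. Of 26 assembly and rRNA modification factors, 16 were higher and 2 lower in CAL-29 and 11 higher and 7 lower in 5637. MRM2, a methyltransferase of the mitochondrial large ribosomal RNA, had 21.4, 19.3 and 19.1 CPM with siCtrl and 32.2, 36.99 and 33.6 with siKMT9α in CAL-29 (log2 fold change 0.78 ± 0.074 (SE), adjusted p = 7.72e-09), and 33.5, 39.1 and 37.3 and 54.5, 61.4 and 58.00 CPM in 5637 (log2 fold change 0.66 ± 0.054 (SE), adjusted p = 1.11e-11). MTG2, a GTPase of large subunit assembly, rose with log2 fold changes of 0.59 ± 0.051 and 0.88 ± 0.050 (SE). Of 15 translation factors, 10 were higher and 3 lower in CAL-29 and 8 higher and 4 lower in 5637. GFM2, which works in ribosome recycling, had 68.5, 67.3 and 65.2 CPM with siCtrl and 37.9, 36.8 and 34.9 with siKMT9α in CAL-29 (log2 fold change −0.87 ± 0.055 (SE), adjusted p = 1.23e-11), and 63.7, 64.99 and 64.9 and 27.99, 29.2 and 27.8 CPM in 5637 (log2 fold change −1.19 ± 0.047 (SE), adjusted p = 6.19e-19). Its partner in recycling, MRRF, rose with log2 fold changes of 0.51 ± 0.071 and 0.52 ± 0.047 (SE). These 2 recycling factors thus moved in opposite directions in both lines.

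Of 17 mitochondrial aminoacyl-tRNA synthetases, 10 were higher and 1 lower in CAL-29 and 7 higher and 5 lower in 5637. MARS2 and EARS2, which charge the tRNAs for methionine and glutamate, rose with log2 fold changes of 0.74 and 0.75 in CAL-29 and of 0.67 and 0.57 in 5637. Of 9 genes of mitochondrial transcription and DNA maintenance, 7 were higher and 0 lower in CAL-29 and 4 higher and 1 lower in 5637. Of 10 nuclear factors known to act on genes of this kind, 6 were higher and 0 lower in CAL-29 and 5 higher and 0 lower in 5637. MYC, a transcription factor that acts on ribosome genes, rose from 69.8, 72.3 and 66.7 to 116, 112 and 111 CPM in CAL-29 (log2 fold change 0.70 ± 0.049 (SE), adjusted p = 6.65e-11) and from 305, 318 and 296 to 434, 445 and 471 CPM in 5637 (log2 fold change 0.56 ± 0.035 (SE), adjusted p = 2.89e-14). ESRRA, a nuclear receptor of mitochondrial genes, rose with log2 fold changes of 0.52 ± 0.049 and 0.62 ± 0.040 (SE).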

How the data were processed

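RNA of CAL-29 and 5637 cells treated with siCtrl or siKMT9α was measured by RNAseq, with 3 libraries per group. Per the submitters' processing notes, the authors used STAR, HOMER and edgeR with hg19. The deposited tables hold the authors' estimated counts per RefSeq transcript, not normalized, of which 37.3% are not whole numbers. The authors also deposited their own p-values, adjusted p-values and log2 fold changes, which were not used. Whether counting used strand is not given in the sources used here.

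Each symbol was represented in a line by its most counted transcript (summed over 6 libraries), with estimated counts rounded to whole numbers. Genes were filtered with filterByExpr, scaled with TMM and tested per line with the quasi-likelihood test of edgeR 4.0.16 under R 4.3.3. The interaction of line and siRNA and the comparison of siCtrl cells were fitted over all 12 libraries. Adjusted p-values are Benjamini-Hochberg values over all genes tested. The SE of a log2 fold change is its size over the square root of the F statistic. DESeq2 1.42.0 and other scalings, filters, tests and subsets of libraries were run as alternatives, and the per-line and interaction fits were tested on simulated data. The p-values measure the spread between libraries, which may be technical. With 3 libraries against 3, the SE of an MRP gene had a median of 0.067 in CAL-29 and 0.051 in 5637, and a permutation test could not go below 0.1. Same-numbered libraries are taken from the sample titles, since the descriptions number the siKMT9α libraries differently.

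The MRP genes, the companion and marker lists and the tests were chosen with earlier results of these data known. Described by rule were the genes past 1e-06 in both lines (up to 6 in each direction by the smaller change), the 5 largest differences between the lines, the 3 highest and lowest levels per length, the 3 largest differences between siCtrl cells, the 3 genes with the smallest changes and 2 genes per companion list. MRPL17, MRPL37, MRPL38, MRPL46, MRPS11, MRPS25 and MRPS34 and the genes of counts of 9 or fewer were added after values were seen. Exons, transcripts and sites were read from GENCODE lifted to GRCh37, and promoters from RefSeq.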

Additional observations from a re-analysis of the deposited data

Results flagged for a closer look

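For 50 MRP genes, the response to KMT9α knockdown differed between CAL-29 and 5637 cells by the interaction test over all 12 libraries at an adjusted p below 0.05. Among the genes described, the log2 fold change in CAL-29 minus that in 5637 was largest for the small subunit genes MRPS26 (0.76), MRPS27 (0.78), MRPS33 (0.71), MRPS35 (0.62) and MRPS6 (0.68). It was also called for MRPL11 (0.42), MRPL12 (0.33), MRPL16 (0.33), MRPL19 (0.61), MRPL21 (0.27), MRPL30 (0.17), MRPL37 (0.42), MRPL42 (0.56), MRPL50 (0.35), MRPL51 (0.30), MRPS2 (0.22) and MRPS24 (0.43). It was below 0 for MRPS25 (−0.41). Line, medium and transfection cannot be told apart in these values, and scaling to total counts moved the median difference of all genes by 0.12.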

How the results depend on the processing

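At an adjusted p below 0.05, the counts of MRP genes higher in CAL-29 (50), lower in CAL-29 (2) and higher in 5637 (25), those with a different response in the lines (50) and those with a different siCtrl level (71) stayed within 1.5 times of these values under every alternative run. The alternatives were DESeq2, total count and upper quartile scaling, no filter, at least 10 counts in every library, the likelihood ratio and exact tests, the replicate block, a joint fit of 12 libraries, all transcripts, counts not rounded (added after seeing the data) and leaving out each library, with fewer of them for the interaction and siCtrl levels. The number of MRP genes lower in 5637 rose from 16 to 27 with total count scaling, and that of all genes from 5111 to 5737. That scaling and upper quartile scaling turned the median of 5637 from 0.02 to −0.034 and −0.021, with the median of all genes moving to −0.06 and −0.05. The share of calls in 5637 that were higher went from 61.0% to 43.8% and 48.8%. Over all genes, this share went from 49.6% to 43.2% and 44.8%. The number past 1e-06 moved more. In CAL-29 it was 20, and 32 with no filter, 33 with the likelihood ratio test and 33 with the exact test. It was 31 with the joint fit and 9 to 25 on leaving out a library. Of all 14682 genes tested in CAL-29, 2194 were higher and 2202 lower at this threshold. These counts were 3050 and 3085 with the likelihood ratio test and 3039 and 3071 with the exact test. They were 3154 and 3034 of 19626 genes with no filter and 2893 and 2526 of 15411 with the joint fit. In 5637, the number of MRP genes past 1e-06 was 14, 22 with no filter and 10 to 15 on leaving out a library. Of all 14367 genes tested there, 2570 were higher and 2515 lower, and 3259 and 3093 of 18770 with no filter. The cause was not tested.

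Leaving out a library gave a median log2 fold change of 0.22 to 0.31 in CAL-29 and of 0.01 to 0.06 in 5637, and 46 to 52 genes higher and 2 to 3 lower in CAL-29 and 21 to 30 higher and 14 to 16 lower in 5637. It gave 44 to 50 genes with a different response and 68 to 71 with a different siCtrl level. Over all genes, it gave 4688 to 5069 higher and 4775 to 5117 lower in CAL-29. In 5637, these were 4743 to 4908 and 4837 to 5005. The response was larger in CAL-29 for 4141 to 4446 of all genes and smaller for 3103 to 3322. The siCtrl level was higher in CAL-29 for 6463 to 6686 of all genes and lower for 6457 to 6655. For 23 of the MRP genes described, 773 of 782 alternative values kept the call at an adjusted p below 0.05. Of the rest, 7 gained and 2 lost it, and none of the calls turned direction. MRPL17, MRPL38, MRPL46, MRPS11, MRPS34 and genes named only in counts were not among these 23. Calls nearer the threshold outside them, such as MRPL43 and MRPS11 in CAL-29 (quasi-likelihood test, adjusted p = 0.0389 and 0.0366), were not covered. N6AMT1 kept its call in every fit.

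Whether the replicate numbers pair the samples cannot be told from so few libraries. Deviations of same-numbered siCtrl and siKMT9α libraries correlated by −0.01 to 0.08 in CAL-29 and −0.0037 to 0.065 in 5637. Not every library correlated best with its own number. In CAL-29, the pairs numbered 1 and 3 had the highest values of all (0.082 and 0.049), and in 5637 the pair numbered 1 (0.065). With the replicate block, 32 MRP genes passed 1e-06 in CAL-29 and 15 in 5637. At an adjusted p below 0.05, 53 were higher and 2 lower in CAL-29 and 25 higher and 17 lower in 5637. At the same threshold, 5159 of all 14682 genes were higher and 5281 lower in CAL-29 with the block. In 5637, 5091 of 14367 were higher and 5153 lower. Over all genes past 1e-06, the block gave 3122 higher and 3072 lower in CAL-29, against 2194 and 2202 without it. In 5637, it gave 2667 and 2559, against 2570 and 2515. The use of the longest transcript per gene was not run, because transcript lengths of the counted set were not at hand. The lowest count was 202, and the median SE of the 39 less counted MRP genes was 0.083 in CAL-29 and 0.060 in 5637, against 0.061 and 0.044 for the 39 more counted ones.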
